A study of Mus musculus with 15 samples.

Results

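Microglia from ATV:4D9-treated mice that the deposited clustering placed in cluster 2 and that held no transcript of the proliferation genes Mki67 and Top2a were examined 1 day after dosing. That clustering has clusters 0, 1 and 2. The clusters which the study describes come from an integration with data of an App mouse model, and their numbers are not those used here. The cells were chosen by 3 measured values, namely cluster number 2, 0 unique molecular identifiers (UMIs, each counting 1 captured mRNA molecule) of Mki67 and 0 UMIs of Top2a. There were 13550 such cells, with 4823, 4594 and 4133 in replicates 1 to 3, out of 20459 cells of the 3 mice and 102043 cells of all 15 mice. They are called Mki67/Top2a-negative cluster 2 cells here, and not non-cycling cells, because they carried transcripts of DNA replication genes, as described further on.

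All 15 mice were male C57BL/6J, 3.5 months old, carried the hTfR KI allele (the apical domain of the human transferrin receptor knocked into the mouse locus) and received a single antibody dose of 10 mg/kg. ATV:4D9 is an antibody to mouse TREM2 on a human IgG backbone whose effector function was reduced by mutation. Its transport vehicle is a site engineered into the Fc part that binds the human transferrin receptor domain. ATV:RSV is the control antibody. Groups of 3 mice were taken 1, 7, 14 and 28 days after ATV:4D9 and 1 day after ATV:RSV, so that controls were sampled at day 1 only. CD45-positive cells of cortex and hippocampus were enriched with beads, which bind other leukocytes as well as microglia, and were captured for 3′ single-cell RNA sequencing, with 1 mouse of each group in each of 3 processing batches.

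Microglia are the resident macrophages of the brain. TREM2 is a lipid-sensing receptor of these cells that signals through the adaptor Tyrobp and the kinase Syk, and its activation is known to promote microglial survival, metabolism and the disease-associated state. Type I interferon induces a separate antiviral gene programme through STAT and IRF factors, many of which act at an interferon-stimulated response element, whereas entry into DNA synthesis is driven by E2F factors.

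The Mki67/Top2a-negative cluster 2 cells made up 67.8%, 62.6% and 68.9% of the cells of the 3 day 1 mice (66.4% ± 3.38, SD, n = 3). Cells that met the same rule made up 1.41% ± 0.480 of ATV:RSV cells, 2.53% ± 0.539 at day 7, 1.19% ± 0.0576 at day 14 and 1.44% ± 0.333 at day 28. The day 1 mice thus contributed 91.0% of all such cells in the series. The day 1 share also depended on the rule, and was 14.5% ± 3.01 when 0 UMIs of 40 G2/M genes were required as well. The other groups fell too, to 0.645% ± 0.127 in ATV:RSV, 1.25% ± 0.285 at day 7, 0.663% ± 0.116 at day 14 and 0.717% ± 0.263 at day 28. The part of cell depth in these lower shares was not tested. Since the share is the outcome of the clustering, it was not tested.

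The cells were deeply sampled. Their median was 9290, 8356 and 7997 UMIs per cell, against 5317 ± 396 in all ATV:RSV cells (n = 3). Without use of the cluster, day 1 cells with no Mki67 or Top2a UMI had a median of 7891 ± 458 UMIs and the corresponding ATV:RSV cells 5308 ± 387 (exact permutation test, two-sided p = 0.1, the smallest that 3 mice against 3 allow). Of 13537 barcode sequences in the chosen cells, 291 (2.15%) also occurred in a mouse of another group, and 396 cells (2.92%) held at least 3 markers of 1 other cell type.

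The identity as microglia was checked first. Tmem119, a microglial surface gene, was at 919, 788 and 939.8 CPM (UMI counts scaled to library size with TMM factors) in the 3 mice, and P2ry12, a purinergic receptor of resting microglia, was at 771, 693 and 741 CPM. Both genes were therefore abundant in the chosen cells. Summed markers of border macrophages reached 20.3 to 27.5 CPM (ATV:RSV 16.8 to 20.3), those of monocytes 18.9 to 23.6 CPM (ATV:RSV 4.503 to 11.4), and those of T and NK cells 0.256 to 0.436 CPM (ATV:RSV 0.186 to 0.529). Larger sums were those of B cell markers at 223 to 238 CPM (ATV:RSV 209.8 to 254), astrocyte markers at 129.9 to 143 CPM (ATV:RSV 203 to 251), neutrophil markers at 109 to 111 CPM (ATV:RSV 178 to 191) and oligodendrocyte markers at 70.8 to 80.7 CPM (ATV:RSV 80.5 to 98.3). Erythroid markers were at 1.15 to 1.94 CPM (ATV:RSV 8.75 to 353). Most of the B cell, astrocyte and neutrophil sums came from 1 gene each, Ighm at 208, Slc1a3 at 123 and Csf3r at 106 CPM in the chosen cells. Among the monocyte markers, Plac8 was at 17.3 CPM in the chosen cells and 1.22 CPM in ATV:RSV cells, Cd44 at 1.07 and 0.428 CPM, Vcan at 0.4802 and 0.217 CPM, Ccr2 at 1.69 and 4.78 CPM, and Ly6c2 at 0.07196 and 0.153 CPM. A comparison of cells without regard to cluster is described further on. In it, 3 of the 4 monocyte markers tested (Plac8, Cd44 and Vcan) were higher at day 1 and 1 (Ccr2) was lower. Of 9 border macrophage markers 4 (Pf4, Ms4a7, Cbr2 and Folr2) were higher and 0 lower. Over all genes tested, 33.8% were higher and 33.3% lower, so these counts of few genes are not read as a shift in other cell types. The part of other cell types in the results below was not tested.

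Axl, Isg15, Tfrc and Cd74 are the genes by which the cells are marked, and their levels are given as a description. Axl (mm10, chr7:25757273-25788705, minus strand) encodes a receptor tyrosine kinase for phosphatidylserine-bearing debris. It was at 45.5, 42.6 and 37.9 CPM in the chosen cells, 4.31, 2.298 and 1.93 CPM in all ATV:RSV cells and 5.04, 4.91 and 4.100 CPM in day 1 cells of clusters 0 and 1. The chosen cells were above both sets in every mouse. The ubiquitin-like antiviral protein gene Isg15 (chr4:156199424-156200818, minus strand) was at 360.3, 433 and 463 CPM, against 25.9, 12.02 and 14.2 CPM in ATV:RSV. Cd74, the invariant chain of MHC class II, was at 263, 211 and 246 CPM, against 38.6, 27.9 and 37.1 CPM. Tfrc (chr16:32608920-32632794, plus strand), the transferrin receptor and the locus of the knock-in, was at 24.7, 25.3 and 23.4 CPM, against 4.25, 3.95 and 4.58 CPM. None of these genes overlapped between the chosen cells and ATV:RSV cells, which was also the case for 10013 of 14335 genes (69.9%), so that the lack of overlap does not set these genes apart.

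**Figure D1:**
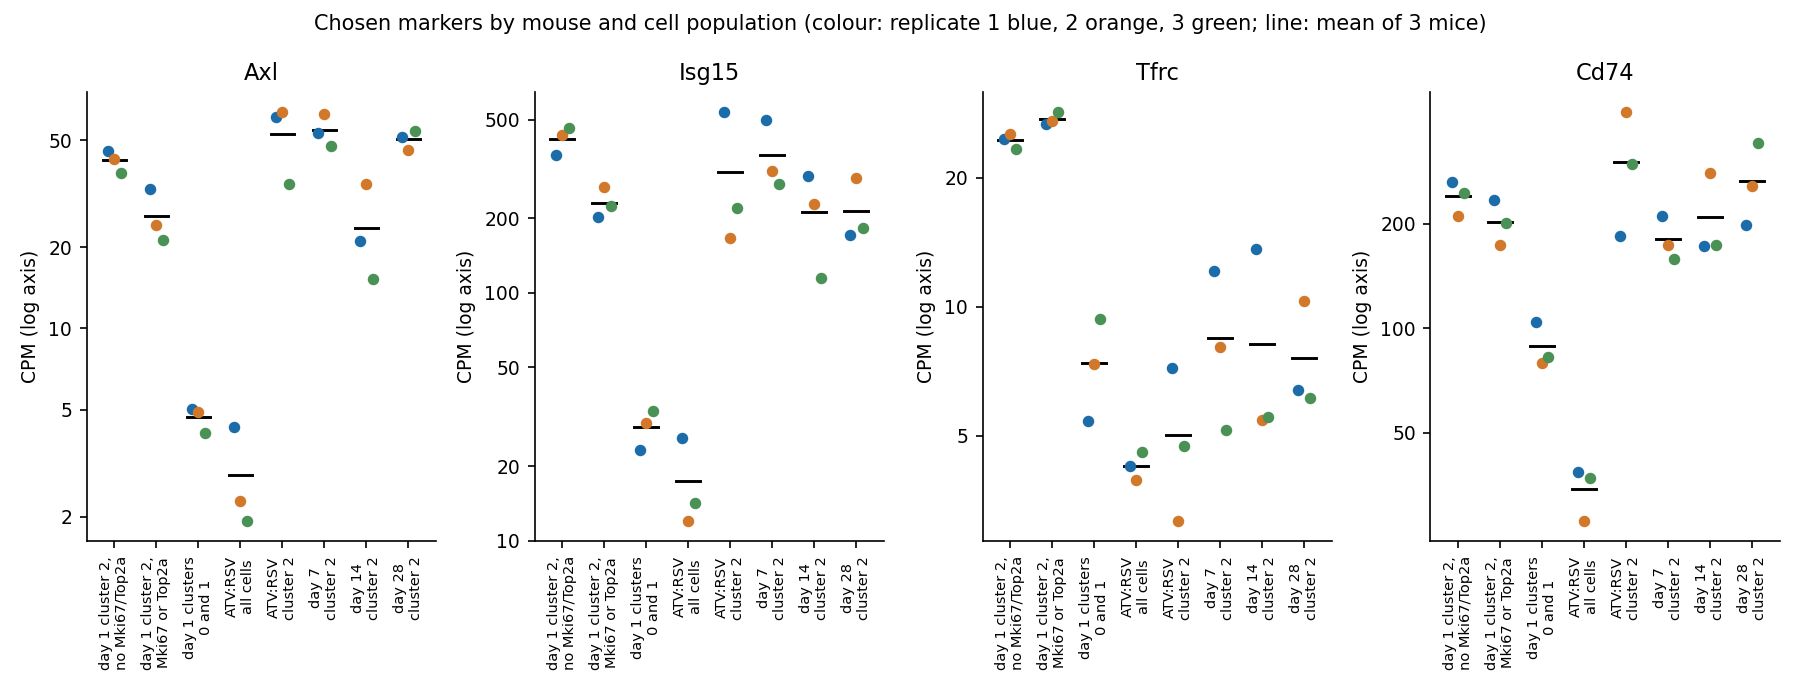
Level of Axl, Isg15, Tfrc and Cd74 in CPM (log axis) in 8 cell populations, with 1 point per mouse (colour gives the replicate) and a line at the mean of 3 mice. Populations other than all ATV:RSV cells and the day 1 cluster 2 cells with Mki67 or Top2a hold only cells without UMIs of these genes. Axl, Isg15 and Cd74 overlap between the chosen cells and ATV:RSV cluster 2 cells. Tfrc is at 23.4 CPM or more in the chosen cells of each mouse and at most 7.20 CPM in ATV:RSV cluster 2 cells. The share of all genes without overlap between these sets was not counted.

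Cluster 2 cells also existed in small number without ATV:4D9, which allowed a description of what the day 1 cells had beyond the cluster. The ATV:RSV mice held 135, 66 and 87 such cells. Axl, Isg15 and Cd74 overlapped between the 2 sets, at 60.8, 63.4 and 34.3, 536, 166 and 221 and 185, 418 and 298 CPM in the ATV:RSV cluster 2 cells. Tfrc did not overlap, at 7.202, 3.17 and 4.73 CPM, a level that rests on 15 UMIs in all ATV:RSV cluster 2 cells. The share of all genes without overlap between these sets was not counted, so the lack of overlap does not set Tfrc apart. At days 7, 14 and 28, Tfrc averaged 8.46, 8.205 and 7.61 CPM in cluster 2 cells. A further gene, chosen after its values were seen, lay in the other direction. The lipid carrier gene Apoe was at 544, 334 and 296 CPM in the chosen cells and at 1277, 3540.2 and 2119 CPM in ATV:RSV cluster 2 cells, and it averaged 1820.5, 1780.4 and 3025 CPM in cluster 2 cells of days 7, 14 and 28. The chosen cells held less Apoe than cluster 2 cells of ATV:RSV in every mouse, and their range included that of all ATV:RSV cells (482, 532 and 491 CPM). Border macrophage markers moved with it, at 53.6, 31.7 and 55.6 CPM in ATV:RSV cluster 2 cells against 20.3, 24.4 and 27.5 CPM in the chosen cells, and cells with at least 3 markers of 1 other type made up 6.53% ± 1.83 and 2.91% ± 0.525 per mouse. Their part in the Apoe difference was not tested.

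Detection of the 4 markers in single cells depended on depth. After each cell was thinned to 3000 UMIs, which left out 1.18% to 2.69% of the chosen cells and 5.31% to 12.3% of ATV:RSV cells, a UMI of Cd74 was found in 39.9% ± 2.54 of the chosen cells and 6.45% ± 1.05 of ATV:RSV cells. Isg15 was found in 32.1% ± 1.67 against 3.43% ± 0.525, Axl in 8.57% ± 0.766 against 0.623% ± 0.229, and Tfrc in 6.22% ± 0.544 against 1.32% ± 0.225. Without thinning the shares in the chosen and ATV:RSV cells were 65.3% ± 4.34 and 11.4% ± 2.83 for Cd74, 47.9% ± 0.839 and 6.29% ± 1.37 for Isg15, 19.4% ± 2.86 and 1.44% ± 0.763 for Axl, and 17.45% ± 1.94 and 2.74% ± 0.295 for Tfrc. Day 1 cluster 2 cells with a Mki67 or Top2a UMI were compared at 2000 UMIs. Tfrc was found in 4.47% ± 0.278 of the chosen cells and 4.48% ± 0.322 of these cells, so it was not particular to the chosen cells. The shares were 29.6% ± 2.53 and 25.2% ± 1.77 for Cd74, 26.7% ± 1.52 and 19.5% ± 1.17 for Isg15, and 5.81% ± 0.580 and 4.15% ± 0.659 for Axl. No UMI of any of the 4 genes was seen in 36.9%, 38.5% and 37.3% of the chosen cells at 3000 UMIs, and all 4 were seen together in 9, 4 and 8 cells. Thinning lowered the share of cells with a UMI of each gene, and Axl and Tfrc were seen in few cells at this depth. These counts therefore do not show how often the genes are expressed together.

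To obtain a comparison that the clustering did not shape, UMIs were summed per mouse over all cells with no Mki67 or Top2a UMI, whatever their cluster, and day 1 was tested against ATV:RSV with limma-voom. The chosen cells made up 87.0% of these day 1 cells. Of 14119 genes tested, 9472 (67.1%) passed an adjusted p of 0.05, with 4767 (33.8%) higher and 4705 (33.3%) lower at day 1. The split depended on the scaling, since 50.3% of calls were higher with TMM factors and 32.6% with library size alone (3364 higher and 6953 lower), and the middle log2 fold change over tested genes moved from -0.05 to -0.31. Counts within gene lists are read against these shares. Log2 fold changes, SEs and adjusted p-values below refer to this comparison or to a named alternative of it. The CPM of the chosen cells printed beside them describe cells picked by cluster and were not tested.

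All 4 markers were higher at day 1 in this comparison, which gives no independent support for them. They were chosen with earlier results of these data known, and the chosen cells made up 87.0% of the day 1 cells tested. The log2 fold change was 4.58 (SE 0.19) for Isg15, 3.87 (SE 0.19) for Axl, 2.79 (SE 0.11) for Cd74 and 2.46 (SE 0.09) for Tfrc, with limma-voom adjusted p-values of 6.27e-12, 4.67e-11, 2.58e-12 and 1.14e-12. Within the 3 batches the log2 ratio was 3.67, 5.06 and 4.94 for Isg15 and 2.30, 2.48 and 2.24 for Tfrc.

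Interferon-stimulated genes were higher throughout. Of 34 such genes tested, 34 were higher and 0 lower at day 1 (median log2 fold change 3.95). In the chosen cells they summed to 6998, 7089.9 and 8684 CPM, against 758, 500.1 and 562 CPM in all ATV:RSV cells. Cxcl10, a chemokine for T cells, rose most by the rule for named genes. It was at 2149, 2471 and 3586 CPM in the chosen cells and 66.7, 40.7 and 39.3 CPM in ATV:RSV cells (log2 fold change 5.82, SE 0.22; adjusted p = 2.19e-12 by limma-voom). Ddx58, the viral RNA sensor RIG-I, rose least (log2 fold change 0.83, limma-voom adjusted p = 2.27e-09). It was at 36.8, 34.8 and 38.1 CPM in the chosen cells and 21.1, 19.3 and 19.99 CPM in ATV:RSV cells. The list was spread unevenly over the cells. At 3000 UMIs per cell the median cell held 9 ± 1 UMIs of the list, the 90th percentile was 49.7 ± 6.03 UMIs, and 3.00% ± 0.250 of cells held none, against 28.0% ± 1.22 of ATV:RSV cells.

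The RefSeq promoters (GRCm38.p6, 250 bases before to 50 after the start) of interferon genes and of a replication gene are printed because both programmes were high in the chosen cells. The interferon-stimulated response element was searched as GAAA, any 2 bases and GAAA, and the E2F motif as TTTCCCGC or TTTGGCGC, on both strands, with overlapping matches kept. Matches are in capitals. The 3 matches of Isg15, of which neighbours overlap, begin 78, 72 and 66 bases before the start, the match of Cxcl10 begins 213 bases before it, that of Ddx58 begins at base 3 of the transcript, and that of Dtl begins 8 bases before the start.
Isg15 (chr4:156200769-156201068, minus strand): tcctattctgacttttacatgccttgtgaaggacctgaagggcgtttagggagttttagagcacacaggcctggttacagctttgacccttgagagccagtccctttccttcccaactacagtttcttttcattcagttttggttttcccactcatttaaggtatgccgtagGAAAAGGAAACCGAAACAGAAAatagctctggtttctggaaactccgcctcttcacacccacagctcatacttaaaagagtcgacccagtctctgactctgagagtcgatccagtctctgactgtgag
Cxcl10 (chr5:92348840-92349139, minus strand): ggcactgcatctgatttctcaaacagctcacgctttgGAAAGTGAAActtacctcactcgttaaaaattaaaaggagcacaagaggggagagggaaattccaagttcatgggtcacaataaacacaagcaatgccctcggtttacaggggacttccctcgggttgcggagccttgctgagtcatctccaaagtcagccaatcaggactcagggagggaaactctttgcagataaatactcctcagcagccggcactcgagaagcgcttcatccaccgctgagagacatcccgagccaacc
Ddx58 (chr4:40239776-40240075, minus strand): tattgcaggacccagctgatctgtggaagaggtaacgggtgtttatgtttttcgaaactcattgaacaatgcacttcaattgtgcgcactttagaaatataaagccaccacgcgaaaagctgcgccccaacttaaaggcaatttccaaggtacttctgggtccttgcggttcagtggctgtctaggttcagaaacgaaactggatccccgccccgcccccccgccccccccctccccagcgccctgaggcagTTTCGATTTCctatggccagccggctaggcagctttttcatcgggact
Dtl (chr1:191575495-191575794, minus strand): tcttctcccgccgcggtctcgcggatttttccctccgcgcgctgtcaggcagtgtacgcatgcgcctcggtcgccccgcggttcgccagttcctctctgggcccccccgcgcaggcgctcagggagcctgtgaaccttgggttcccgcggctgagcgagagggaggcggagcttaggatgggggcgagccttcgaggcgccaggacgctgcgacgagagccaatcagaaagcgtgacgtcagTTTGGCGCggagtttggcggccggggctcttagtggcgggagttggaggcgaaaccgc

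Of 34 genes in the interferon list, 24 had a promoter in the table, and 16 of them (66.7%) held the response element, whereas 1079 of 27025 genes (3.99%) with a promoter did. Of 47 S phase genes, 36 had a promoter in the table, and 12 of them (33.3%) held the E2F motif, which was present in 486 of the 27025 genes (1.80%). Neither the Axl promoter for the response element nor the Pcna promoter for the E2F motif had a match. These matches are descriptions of the sequence.

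Genes of DNA replication were also higher at day 1 although the cells had been selected for the absence of Mki67 and Top2a. All 47 S phase genes tested were higher at day 1 (median log2 fold change 4.19), and of 37 G2/M genes 32 were higher and 2 lower (median 2.61). The choice of cells by Mki67 and Top2a touches the genes of both lists. It kept 76.1% ± 3.95 of day 1 cells and 99.5% ± 0.160 of ATV:RSV cells, so fold changes and calls in these lists are not free of it. Dtl, a substrate receptor of the replication-coupled ubiquitin ligase, had the largest S phase change. It was at 25.7, 29.4 and 27.7 CPM in the chosen cells and 0.451, 0.325 and 0.09202 CPM in ATV:RSV cells, which held 41 UMIs of it (log2 fold change 7.96, SE 0.49; adjusted p = 6.76e-10 by limma-voom). Pcna, the sliding clamp of DNA polymerase, was at 218, 228 and 219 against 49.9, 48.3 and 45.8 CPM (log2 fold change 2.17, adjusted p = 3.02e-14 by limma-voom). The 5 genes with the largest log2 fold changes over all genes, under the conditions of the naming rule, were Timeless (6.58), E2f1 (6.44), Ung (6.33), Fignl1 (5.99) and Hells (5.92), which act in fork protection, S phase transcription, uracil excision, recombination and chromatin remodelling. Among G2/M genes the spindle checkpoint kinase Bub1 rose (5.55) and the centromeric histone gene Cenpa fell (-1.54), but Cenpa did not pass the test when cells with Mki67 or Top2a UMIs were kept (0.011, limma-voom adjusted p = 0.963).

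Within day 1 cluster 2, replication transcripts followed the UMIs that defined the choice. Given as CPM without TMM factors, S phase genes were at 1970 ± 114 in the chosen cells, 3174 ± 151 in the 1910 cells with 1 UMI of Mki67 and Top2a together, which lay just outside the rule, and 5340 ± 65.6 in the 2153 cells with at least 3. G2/M genes were at 249.6 ± 15.2, 462 ± 34.2 and 2139 ± 120.2 CPM in these classes. Interferon-stimulated genes were at 6959 ± 741, 5844 ± 722 and 5599 ± 513 CPM, so that the replication lists increased over the classes and the interferon list was highest in the chosen cells of each mouse. Cells with more UMIs of the rule genes were also deeper, with medians of 8548 ± 667, 9829 ± 763 and 11779 ± 684 UMIs per cell.

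**Figure D2:**
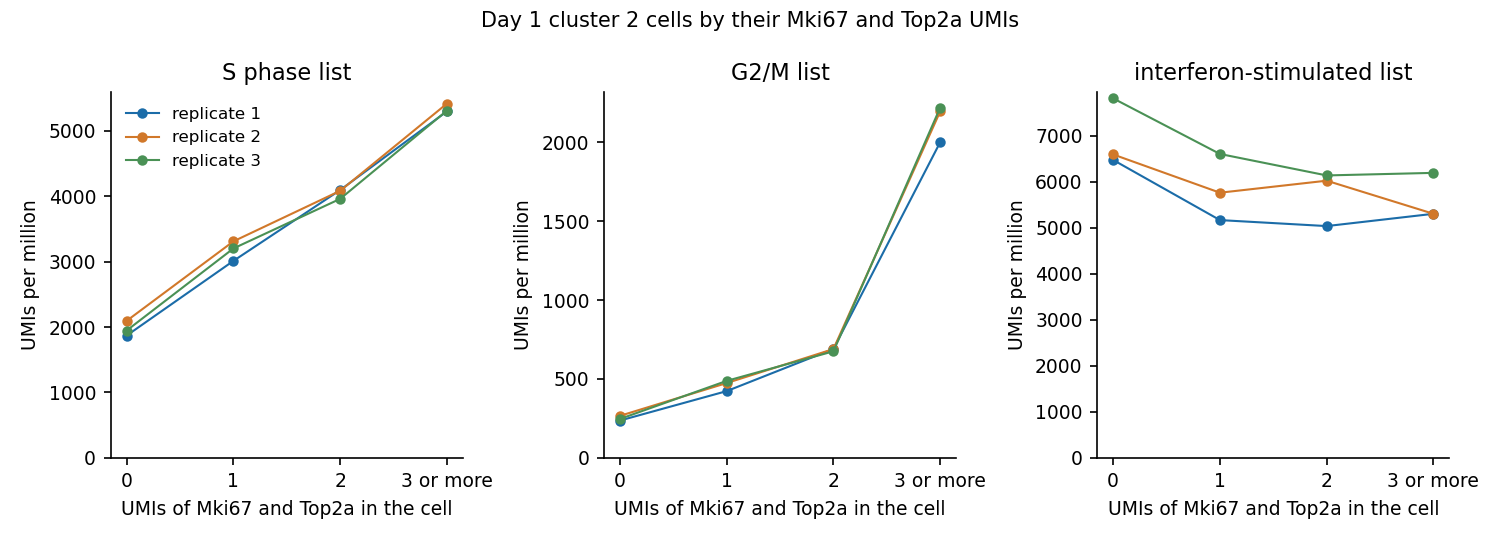
CPM without TMM factors (linear axis from 0) from S phase, G2/M and interferon-stimulated genes in day 1 cluster 2 cells with 0, 1, 2 or at least 3 UMIs of Mki67 and Top2a, with 1 line per mouse. The chosen cells (0 UMIs) have the lowest S phase and G2/M values and, in each mouse, the highest interferon value.

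S phase UMIs per cell were also counted at equal depth. At 3000 UMIs per cell they held 5.97 ± 0.389 S phase UMIs on average and 4.30% ± 0.988 held none, against 1.20 ± 0.0457 UMIs and 32.2% ± 1.09 in ATV:RSV cells. In cells of clusters 0 and 1 from the same day 1 mice the average was 1.96 UMIs and 21.9% ± 6.98 held none, and the part of free RNA in these counts was not tested. A stricter rule, with 0 UMIs of 40 G2/M genes as well, left 2918 of the chosen cells. The comparison with ATV:RSV under that rule took cells of any cluster, so it also holds day 1 cells of clusters 0 and 1. In it all 45 S phase genes tested were still higher at day 1 (median log2 fold change 3.15). In ATV:RSV cluster 2 cells the S phase list summed to 511, 667 and 479 CPM, below the 2021, 2253 and 2164 CPM of the chosen cells.

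Metabolic genes formed another group. Of 45 genes of oxidative phosphorylation tested, 44 were higher and 0 lower (median log2 fold change 0.89), of 19 glycolysis genes 15 were higher and 1 lower (median 1.09), and of 23 ribosome biogenesis genes 20 were higher and 0 lower (median 1.28). The mitochondrial percent of UMIs per cell moved with these lists, with a median of 4.28 ± 0.295 (3.94 to 4.46) in the day 1 cells and 3.25 ± 0.134 (3.11 to 3.38) in the ATV:RSV cells of this comparison, and its part in them was not tested. Sterol synthesis genes were higher for 18 of 21, and for 12 of 21 with 1 lower under library size alone. The glycolytic enzyme gene Pgk1 was at 257, 256 and 277 CPM in the chosen cells and 50.9, 52.5 and 53.3 CPM in ATV:RSV cells (log2 fold change 2.27, limma-voom adjusted p = 3.02e-14). Atp5g1, a subunit of the proton channel of ATP synthase, was at 503, 517 and 553 against 123, 131 and 146 CPM (log2 fold change 1.93). Gapdh (1.98), the snoRNP protein gene Nhp2 (2.09), the nucleolar chaperone gene Npm1 (1.44) and the squalene epoxidase gene Sqle (2.54) rose as well. The hexokinase gene Hk1 fell (-0.55). The cytochrome oxidase subunit gene Cox4i1 (0.75) and the sterol isomerase gene Ebp (0.46) had the highest levels of their lists, and Sdha (0.08), Lss (-0.06) and Polr1a (0.02) did not pass the test.

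The oxidative phosphorylation and glycolysis lists were higher in day 1 cluster 2 cells, with or without Mki67 or Top2a UMIs, than in cluster 2 cells of the other groups. Oxidative phosphorylation genes summed to 13137, 12956 and 13466 CPM in the chosen cells and 7843, 8221 and 7850.4 CPM in ATV:RSV cluster 2 cells, and averaged 8391 ± 483, 8201 ± 398 and 7921 ± 587 CPM at days 7, 14 and 28. Glycolysis genes summed to 5745, 5669 and 6115 against 2756, 3643 and 3135 CPM. Day 1 cluster 2 cells with a Mki67 or Top2a UMI were close to the chosen cells, at 12328, 12177 and 12720.1 CPM for oxidative phosphorylation and 5184, 5175 and 5725 CPM for glycolysis. These levels were thus shared by day 1 cluster 2 cells and not particular to the chosen cells. Interferon-stimulated genes, at 8324, 2911 and 3152 CPM in ATV:RSV cluster 2 cells, and at 7987, 5471 and 4591 CPM in day 7 cluster 2 cells, overlapped with the chosen cells (6998, 7089.9 and 8684 CPM) through replicate 1 of each group, and replicates 2 and 3 of both groups were below every chosen value. The sums were 4209, 3936 and 2765 CPM at day 14 and 3074, 4092 and 3334 CPM at day 28, without overlap. Gene by gene, 13 of 34 were higher in the chosen cells than in ATV:RSV cluster 2 cells (median log2 ratio -0.21) and 11 of 34 higher than in day 7 cluster 2 cells (median -0.41). Against cluster 2 cells of day 14, 19 of 31 were higher (median 0.17), and against those of day 28, 24 of 32 (median 0.36). Over all genes with a level in both sets, the share higher in the chosen cells was 55.6%, 52.7%, 56.4% and 56.2% against these groups in turn. The day 14 count lay near this share. Cxcl10 alone made up 2149, 2471 and 3586 CPM of the sums in the chosen cells. For scale, of 9502 genes with a level in both, 406 differed by 2-fold or more with the chosen cells higher than ATV:RSV cluster 2 cells, and 309 with them lower.

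**Figure D3:**
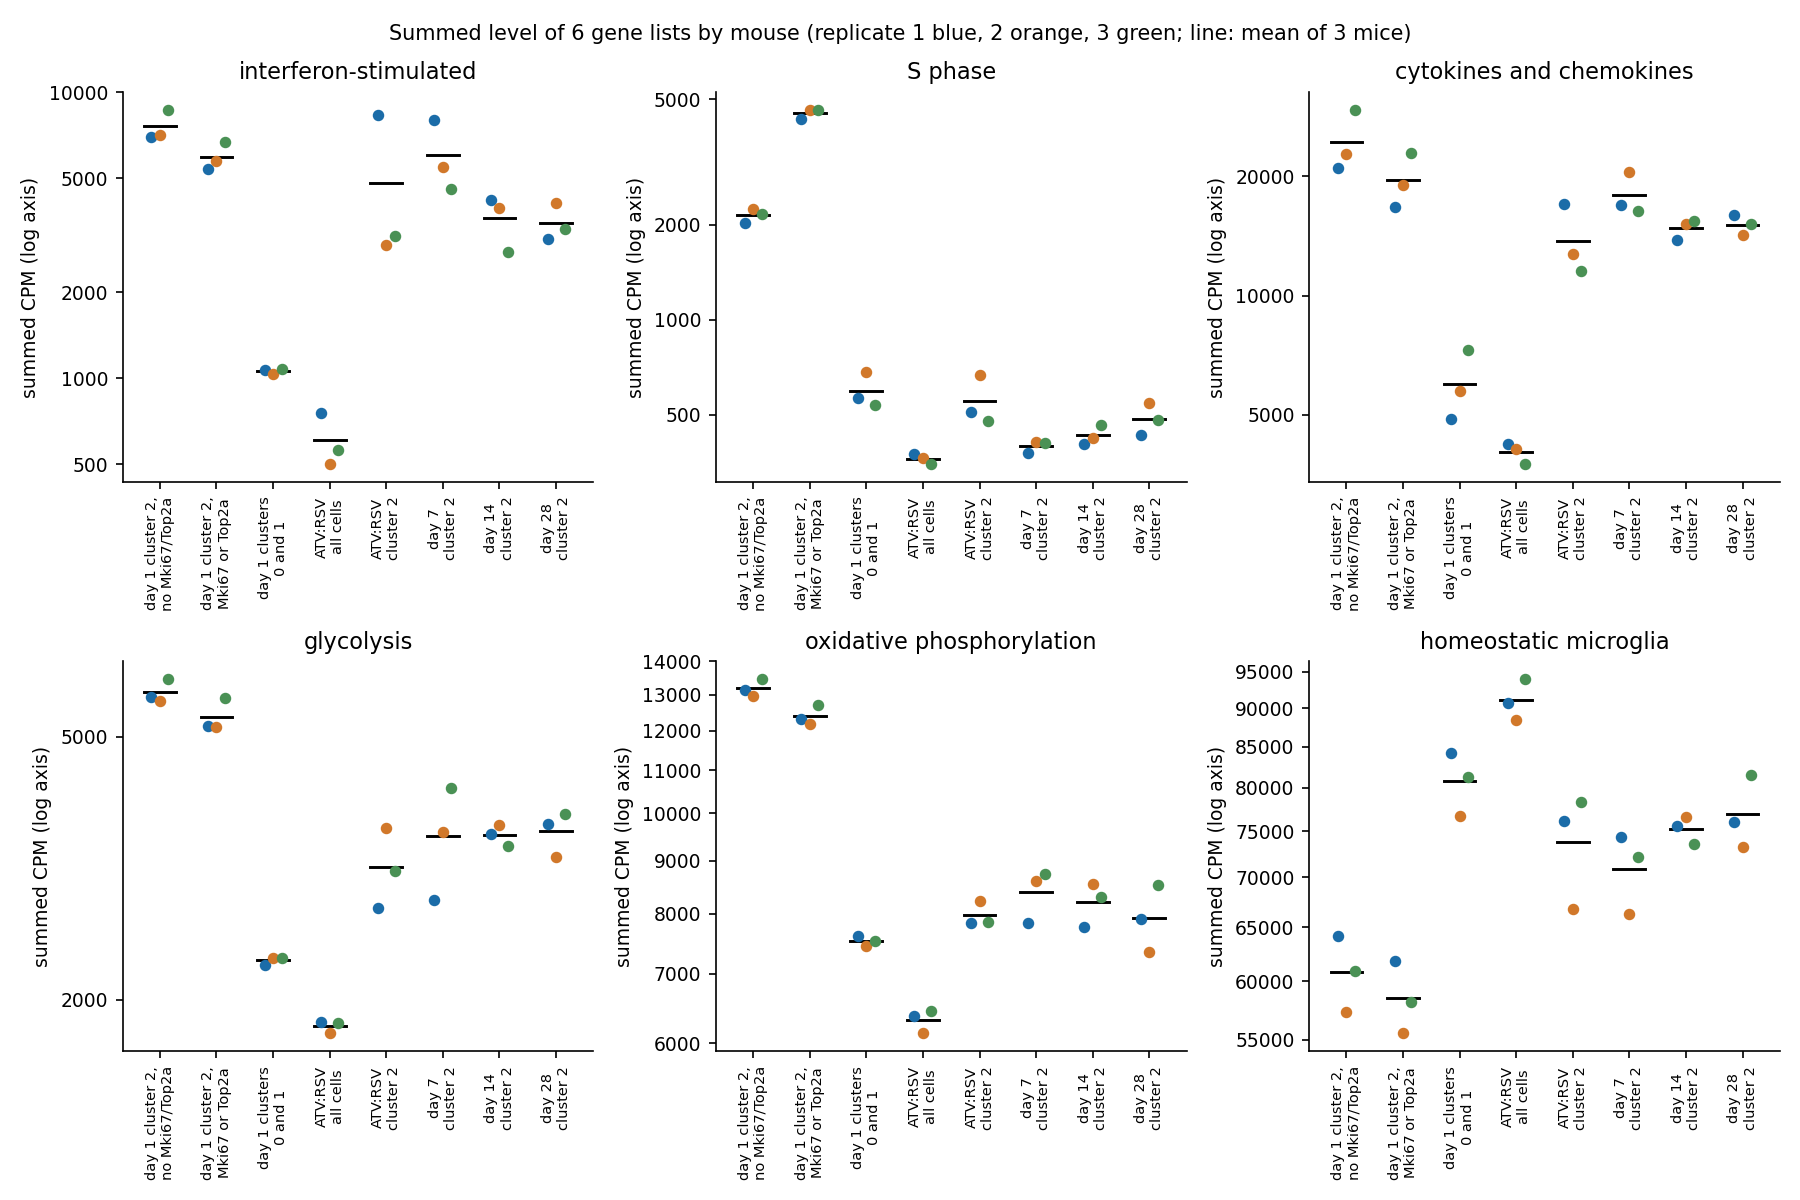
Summed CPM (log axis) of 6 gene lists in 8 cell populations, with 1 point per mouse and a line at the mean of 3 mice, populations as in the plot of the 4 markers. S phase, glycolysis and oxidative phosphorylation lists are higher in the chosen cells than in cluster 2 cells of other groups, and the homeostatic list is lower in the chosen cells (57356 to 64121 CPM) than in ATV:RSV cells (88428 to 94008 CPM).

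Cytokine and chemokine genes were higher for 16 of 20 tested and lower for 2 (median log2 fold change 2.35). Ccl4, an inflammatory chemokine and the most abundant of the list, was at 5610.2, 6536 and 8222 CPM in the chosen cells and 1566, 1586 and 1435 CPM in ATV:RSV cells (log2 fold change 2.07, limma-voom adjusted p = 1.79e-07). The interleukin 12 subunit gene Il12b, with 49 UMIs in all ATV:RSV cells, had the largest change (6.19, SE 0.70). It was at 18.5, 26.3 and 22.3 CPM in the chosen cells and 0.647, 0.279 and 0.09202 CPM in ATV:RSV cells. Ccl6 was lower (-0.39, limma-voom adjusted p = 5.53e-04). Of 23 immediate early genes, which dissociation of tissue can also induce, 2 were higher and 14 lower (median -0.53), with Ier3 higher (1.19), Klf4 lower (-1.37) and Junb lower (-0.42).

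Homeostatic microglia genes were lower for 20 of 22 tested and higher for 1 (median log2 fold change -0.54). P2ry12 was at 771, 693 and 741 CPM in the chosen cells and 1988, 1972 and 1959 CPM in ATV:RSV cells (log2 fold change -1.28, SE 0.05; adjusted p = 4.03e-12 by limma-voom). The protease inhibitor gene Cst3, the most abundant of the list, also fell (-0.62). Olfml3 was the exception with 0.395, which lost its call under library size alone (0.14, limma-voom adjusted p = 0.140).

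Disease-associated genes were higher for 17 of 25 and lower for 1 (median 0.70). The cystatin gene Cst7 rose most (log2 fold change 4.59, SE 0.08, adjusted p = 1.39e-15 by limma-voom). It was at 303, 301 and 319.6 CPM in the chosen cells and 12.3, 12.2 and 11.8 CPM in ATV:RSV cells. The ferritin heavy chain gene Fth1 rose as well (1.14). Apoe did not pass the test (-0.38, limma-voom adjusted p = 0.0574), with log2 ratios of 0.20, -0.62 and -0.71 within the 3 batches. Beside cluster 2 cells of other groups the list lay in the other direction. Of 25 genes, 7 were higher in the chosen cells than in ATV:RSV cluster 2 cells (median log2 ratio -0.33). Against cluster 2 cells of days 7, 14 and 28 there were 6, 8 and 7 (medians -0.43, -0.50 and -0.49). Over all genes, 55.6% were higher against ATV:RSV and 52.7%, 56.4% and 56.2% against these days.

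Of 17 genes of TREM2 signalling tested, 6 were higher and 8 lower (3 and 12 under library size alone), beside 33.8% higher and 33.3% lower over all genes, and the list is not read as a group. Trem2 itself was at 2438, 2231 and 2379.5 CPM in the chosen cells and 2415, 2453 and 2701 CPM in ATV:RSV cells, and it did not pass the test (log2 fold change -0.08, SE 0.05; adjusted p = 0.121 by limma-voom), although it was lower under library size alone (-0.34). Tyrobp rose (0.43), the adaptor gene Lat2 rose (1.34) and Syk fell (-0.95). Syk was at 39.3, 36.9 and 38.9 CPM in the chosen cells and 86.6, 79.98 and 72.1 CPM in ATV:RSV cells, without overlap.

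All 13 MHC class I genes tested were higher (median 0.66), and 11 of 13 under library size alone, with the transactivator gene Nlrc5 at 3.14, B2m at 0.75 and the peptide transporter gene Tap2 at 0.28. Of 9 class II genes, 5 were higher and 3 lower, beside 33.8% and 33.3% over all genes, and 4 and 4 under library size alone. The difference between the 2 classes was not tested. Cd74 had the largest change of the class II list, and H2-DMb2, a peptide-exchange subunit, the lowest (-0.96). The class II chain gene H2-Ab1, named after its values were seen, was at 24.4, 21.1 and 20.7 CPM in the chosen cells, above 10.3, 8.03 and 10.9 CPM in ATV:RSV cells.

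Of 13 iron handling genes, 8 were higher and 3 lower (median 0.45), led by Tfrc, and the iron exporter gene Slc40a1 was lowest (-1.22). Lysosome genes were higher for 15 and lower for 5 of 28 (median 0.14), but for 10 and 13 under library size alone, with the cathepsin genes Ctsz higher (1.495) and Ctsf lower (-0.73). The 5 lowest log2 fold changes over all genes by the naming rule were those of Adtrp (-3.48), Kcnj9 (-3.29), Mycl (-3.16), Frat2 (-2.76) and Tcp11l2 (-2.74). Mycl, a MYC family transcription factor gene, was at 0.868, 0.998 and 0.716 CPM in the chosen cells and 10.6, 9.79 and 12.2 CPM in ATV:RSV cells.

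**Figure D4:**
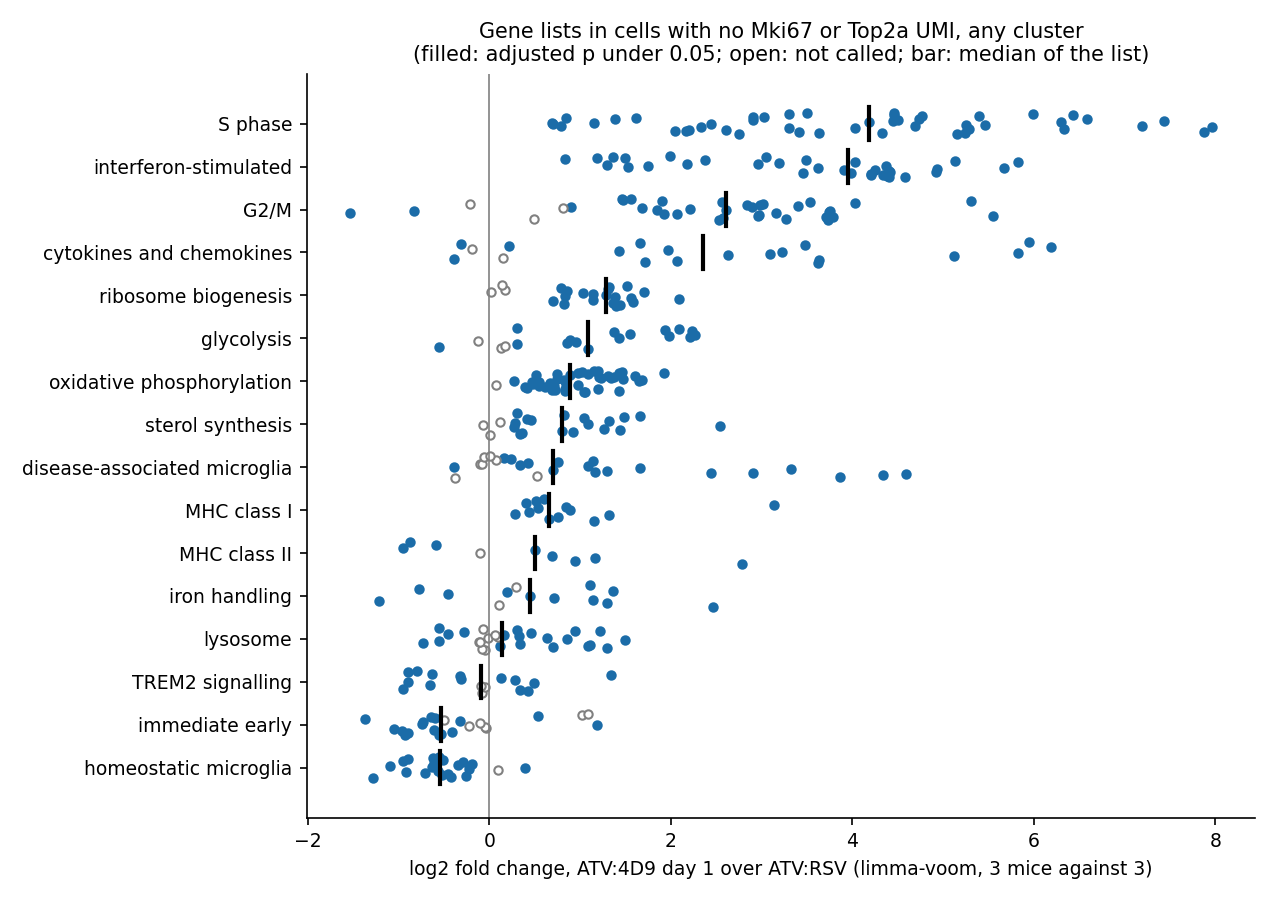
Log2 fold change (ATV:4D9 day 1 over ATV:RSV, limma-voom, 3 mice against 3) of every tested gene of 16 lists in cells with no Mki67 or Top2a UMI of any cluster. Filled points passed an adjusted p of 0.05, open points did not, and bars give the list median, which is highest for S phase (4.19) and interferon-stimulated genes (3.95) and lowest for homeostatic genes (-0.54).

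The 3 mice resembled each other. Over 2949 genes at 50 CPM or more in the chosen cells, the median coefficient of variation between mice was 4.80%, beside 4.65% in all ATV:RSV cells. Genes with a wide spread, named after their values were seen, were Hspa1a, a heat shock gene, at 246, 223 and 81.2 CPM (48.7%, beside 71.8% in ATV:RSV cells), Ifi27l2a at 325, 178 and 168 CPM (39.2%, beside 65.1%) and Apoe (34.2%, beside 5.33%). Cxcl10 and Ccl4 were each highest in replicate 3.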

How the data were processed

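The deposited UMI counts per gene and cell were used as the authors gave them, made with Cell Ranger (4.0.0 in the submitters' processing notes, whereas the study's methods name later versions, so that the version behind these counts is not settled) on mm10, and cells clustered in Seurat by the authors; cell filters are not given in the sources used here. The deposited mitochondrial percent was used as a cell value only. The members and gene lists were chosen with earlier results of these data known. UMIs were summed per mouse and population; the chosen cells held 35702973 to 48563978 UMIs per mouse. Levels are CPM with TMM factors, described without a test because the clustering used every gene. The cluster-free comparison used limma-voom in R 4.3.3 with edgeR 4.0.16 and limma 3.58.1 on all 15 mice, with filterByExpr (minimum count 10), TMM, group means, two-sided tests and Benjamini-Hochberg adjustment. Alternatives were edgeR, DESeq2 1.42.0, other scaling, filters, cell sets and mice. The fit was run on simulated counts of 17465 genes, few of them changed. It called 96% to 100% of the changed genes, and 7.94% of its calls were false, more than the adjusted p of 0.05 allows. Since far more genes passed in the real data, the simulation does not give the false share of the calls here. No doublet caller was run; leaving out the 5% of cells with most UMIs, or cells with at least 3 markers of 1 other type, were alternatives.

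Genes named were the 4 markers, Mki67, Top2a, Trem2, Tyrobp and Syk, the highest and lowest log2 fold change and the most abundant member of each list, and the 5 highest and 5 lowest genes called with 10 UMIs or more in every one of the 6 mice, groups that did not overlap and no predicted-gene symbol; a gene that this rule names is not reported here. Batches pair the mice, since the labels put every condition in each batch; deviations of day 1 and ATV:RSV mice of 1 batch correlated at r = 0.132, 0.152 and 0.183. Within-batch ratios add 0.5 CPM.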

Additional observations from a re-analysis of the deposited data

How the results depend on the processing

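The number of genes called (9472) ranged from 6752, when cells with a UMI of 40 G2/M genes were also left out, to 10317 with library size alone, and from 8877 to 9121 when 1 mouse at a time was left out. With the batch as replicate block, 9956 genes were called (4935 higher and 5021 lower), and no named gene changed its call. Without cells whose barcode occurs in more than 1 mouse, an alternative added after seeing the data, 9450 were called, without the 5% of cells with most UMIs 9270, and without cells holding markers of another type 9430. Of 966 values of 57 named genes under 17 alternatives, 952 kept direction and call, 3 lost and 2 gained a call. The 9 that changed sign were Cenpa with all cells (0.011), Sdha with library size alone (-0.18) and the stricter rule (-0.030), Lss without ATV:4D9 replicate 2 (0.04) or ATV:RSV replicate 3 (0.052), and Polr1a with library size alone (-0.23), the stricter rule (-0.092), without ATV:4D9 replicate 2 (-0.05) or ATV:RSV replicate 1 (-0.11); Sdha, Lss and Polr1a had not passed the test, and Sdha passed it with library size alone. With 1 mouse left out, Lss ranged from -0.24 to 0.052 and Polr1a from -0.11 to 0.11. The difference in median UMIs kept its sign. Tfrc in the chosen cells moved to 21.5 CPM under the stricter rule and 22.5 CPM with library size alone, more than the spread between mice. The share of day 1 cells was 77.5% when the rule was applied after thinning to 3000 UMIs and 14.5% under the stricter rule. Shares of cells with a UMI followed depth, at 5.81% (2000 UMIs) and 19.4% (no thinning) for Axl, 26.7% and 47.9% for Isg15, 4.47% and 17.45% for Tfrc, and 29.6% and 65.3% for Cd74. Fewer cells and UMIs underlie the stricter rule; other causes were not tested.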
